A study of Gallus gallus with 6 samples.

Results

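The DDX and DHX genes encode the DEAD-box and DEAH-box RNA helicases, and their messenger RNA was followed in hen jejunal mucosa after 6 h of heat. Members were all rows of the deposited gene table whose symbol begins with DDX or DHX, leaving out DHX58, that had at least 10 counts in 3 or more of the 6 libraries. Of 16317 genes in the table, 42 rows carried such a symbol and 39 met the count rule, 27 of them DDX and 12 DHX. Family genes without a row under such a symbol, DDX39B and DHX9 among them, were not covered. The rule used symbols and counts over both groups together and no difference between groups. The 3 rows under the rule were DDX4, a germ cell helicase, with 5 to 10 counts per library, DDX43 with 0 or 1 and DHX32 with 1 to 4. The member nearest to the rule's limit was DDX25, whose counts were 30, 27 and 16 over control pools 1 to 3, and 13, 8 and 8 over heat pools 1 to 3.

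These proteins use ATP to pull apart short RNA duplexes or to strip proteins off RNA, and they take part in nearly every step of an RNA's life. DEAD-box members open a duplex locally, while many DEAH-box members move along a strand and are switched on by G-patch proteins. In a tissue such as the intestinal mucosa, whose lining is replaced continuously, they serve ribosome assembly, splicing, mRNA export, translation and mRNA decay. The roles given below are known mainly from yeast and human cells and are background, not results of these data.

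The study compared SUT breeder hens aged 28 weeks that were kept at 23 °C with hens of the same kind held at 36 °C for 6 h, 25 hens per condition and 50 in all. Jejunal mucosa, the lining of the middle small intestine, was taken from 12 hens per condition, and every pool joined RNA of 4 hens. With 3 pools per condition and 1 library per pool, the spread between replicates is a spread between pools of hens and not between hens. At which hour each group was sampled is not stated in the sources used here.

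Summed estimated counts were 11513427 to 13805395 per library, and 13060 genes had enough counts for testing. The 15 enterocyte markers were all measured, with a summed level of 20344 to 29923 CPM (counts per 1000000 on scaled library sizes) in control pools and 16453 to 29360 CPM in heat pools. Of 13 marker lists, which included pancreas and germline, only the erythroid list had a summed level that did not overlap between the groups. It was at 24.0 to 25.4 CPM in control pools and 14.5 to 19.6 CPM in heat pools. It held 4 of its 9 listed genes, and its part in the results below was not tested. Of its 3 tested genes, only 1 had all heat pools lower. Their log2 fold changes (heat over control, edgeR) ran from -0.98 to -0.13. On principal component 1, which held 37.6% of the variance, control pools 1, 2 and 3 were at -27.1, -16.5 and -16.5, below all heat pools. Heat pool 2 stood apart there at 45.7, against 8.0 and 6.5 for heat pools 1 and 3. On the second component, with 20.4%, heat pool 3 stood at -38.8 against 2.70 to 13.5 for the other pools.

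DDX3X was the member that differed most in the higher direction, and it was already among the most abundant of the family. DDX3X (gene 418567) helps ribosomes start translation on mRNAs with structured leaders and is a component of stress granules. Its level, as fragments per kilobase of gene per 1000000 fragments (FPKM, a scale that corrects for gene length), was 393, 393 and 377 over control pools 1 to 3, and 1338, 1171 and 769 over heat pools 1 to 3. The control pools lay close together, and every heat pool was far above all of them. In scaled CPM the mean went from 1597 ± 39.4 to 4648 ± 1059 (SD, n = 3 pools each), a ratio of 2.91. The heat pools stood at 3.44, 3.13 and 2.17 times the control mean, so heat pool 1 was the highest, and heat pool 2, which stood apart on the first component, was in the middle. In mixed tissue, more cells that carry an mRNA and more of it per cell cannot be told apart.

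The log2 fold change of DDX3X was 1.54 (SE 0.21, 95% interval 1.07 to 2.02). By the edgeR quasi-likelihood test it did not pass the threshold of 0.05, with an adjusted p of 0.0773 and an unadjusted p of 6.85e-05, the rank of 9 among all tested genes. In DESeq2 it rose, with an adjusted p of 4.14e-14, and with limma-trend on log2(FPKM + 1) its adjusted p was 0.0571. Over all alternatives the adjusted p of DDX3X ranged from 4.14e-14 to 0.256 and the log2 fold change from 1.42 to 1.72. Without heat pool 3, its lowest heat pool, the edgeR adjusted p was 0.0361 and the gene passed.

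No other gene of at least its control level was higher by as much, and genes lower by as much were not counted. Of 46 tested genes whose mean control CPM was at least that of DDX3X, it was the only 1 with a log2 fold change of 1.54 or more. Of all 13060 tested genes, 38 reached that size. Both limits were the values of DDX3X itself, so these counts describe the gene and do not test it. Ranked by FPKM over all genes of the table, DDX3X was at ranks 294, 289 and 311 in the control pools and at ranks 122, 131 and 188 in the heat pools. It took 0.163% ± 0.0039 of all counts in control pools and 0.459% ± 0.122 in heat pools. Within the family, its share of the members' summed FPKM was 22.1% ± 0.693 in control pools and 45.8% ± 5.38 in heat pools.

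DDX5 and DDX17, close relatives that act as transcription coregulators and in splicing, were the other abundant members. DDX5 (gene 395629) had the highest FPKM of the family in each control pool, at 585, 623 and 561, against 673, 481 and 494 in heat pools 1, 2 and 3. Heat pool 1 was above the control pools and heat pools 2 and 3 were below them. In every control pool the FPKM of DDX5 was above that of DDX3X, and in every heat pool it was below. The log2 fold change of DDX5 was -0.05 (SE 0.16, 95% interval -0.42 to 0.32, edgeR adjusted p = 0.91), and it was 0.04 without heat pool 2. DDX17 stood at 94.3, 90.6 and 93.6 FPKM in the control pools and at 105, 106 and 87.0 FPKM in the heat pools, a log2 fold change of 0.15 (SE 0.12, edgeR adjusted p = 0.558). Without DDX3X, the summed FPKM of the other 38 members was 1364 ± 73.7 in control pools and 1266 ± 145 in heat pools, which overlapped.

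**Figure D1:**
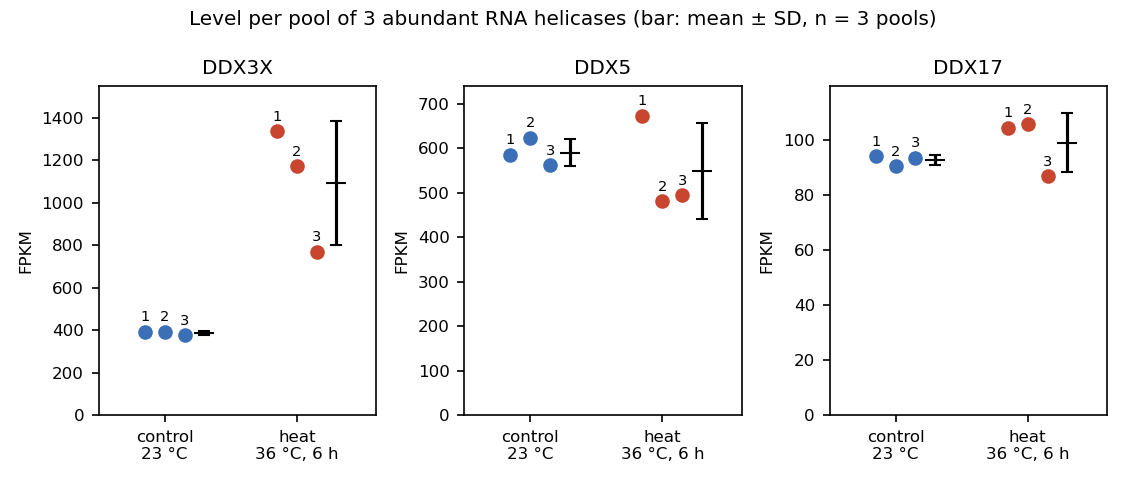
FPKM of DDX3X, DDX5 and DDX17 in each pool (points, numbered by pool) with mean ± SD over 3 pools (bars), vertical axes from 0. DDX3X lies between 769 and 1338 in the heat pools and at 377 to 393 in the control pools, while DDX5 and DDX17 overlap between the groups.

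Across the family, no member passed in edgeR in either direction, against 3 of 13060 genes tested (0.023%, all higher). At an unadjusted p under 0.05, 3 members were higher and 4 lower, where 8.87% and 9.02% of all tested genes were. These shares of 39 members, 7.69% and 10.3%, were near those of all genes. Of the 38 members to which DESeq2 gave an adjusted p, DDX25 having none, it called DDX3X and no other. It called 5.02% of the 12263 genes with an adjusted p, 2.76% higher and 2.26% lower. The DESeq2 shares of all genes given below are over these 12263. At an unadjusted p under 0.05, DESeq2 had 3 members higher and 5 lower (7.69% and 12.8%), beside 7.66% and 6.66% of 15986 genes. Those 15986 genes were taken without the count filter used for edgeR. With limma-trend on log2(FPKM + 1) 0 members passed, against 0.0153% of all genes, and 2 were higher and 6 lower at an unadjusted p under 0.05, beside 5.24% and 13.2% of genes. The median log2 fold change of the members was -0.012, beside -0.0027 for all tested genes, with 19 positive and 20 negative. Of 39 members, 36 had a 95% interval within 2-fold either way and 25 had 1 within 1.5-fold either way. The exceptions to the limit of 2-fold were DDX3X, DDX25 and DDX60.

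In 8 members all heat pools lay above all control pools and in 6 all lay below, where 11.6% and 12.9% of all tested genes did so. This split depended on the scaling: with FPKM it was 2 higher and 9 lower, where 7.60% and 17.0% of genes did so, and with total count scaling it was 2 higher and 10 lower, where 7.86% and 16.8% did so. DDX3X and DDX31 were the 2 members that were higher in all heat pools in scaled CPM and in FPKM, and DDX1, DDX24, DDX27, DDX47 and DDX54 were lower in both.

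**Figure D2:**
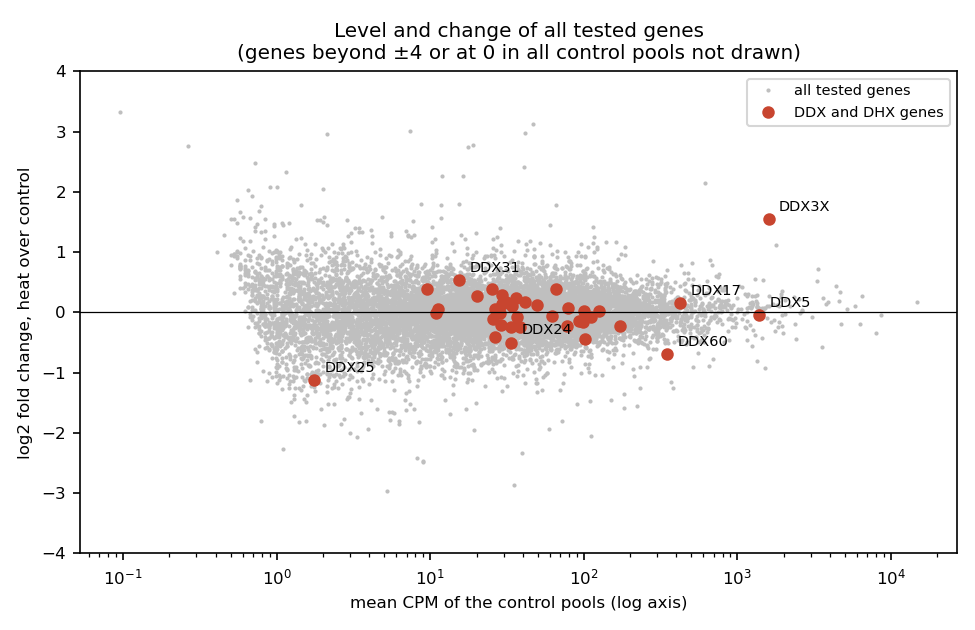
Log2 fold change (heat over control, edgeR) against mean control CPM (log axis) for all tested genes in grey and the 39 DDX and DHX genes in red. Among genes with a control mean of at least 1597 CPM, DDX3X is the only 1 with a log2 fold change of 1.54 or more. Both limits are the values of DDX3X itself. Most other members lie near 0.

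The level of the members spanned a wide range on the length-corrected scale. Mean control FPKM ran from 0.617 for DDX25 to 590 for DDX5, with a median of 16.3. After DDX5, DDX3X and DDX17 came DDX60 at 52.6 ± 17.2 and DDX1 at 48.2 ± 2.52 FPKM, which did not differ beyond the spread of DDX60. The median coefficient of variation in CPM was 7.33% in control pools and 10.6% in heat pools, against 10.9% and 15.8% for all tested genes. Members well above these medians were DDX60 with 32.2% in control and 35.5% in heat pools, DDX25 with 30.0% and 32.8%, and DDX10 with 23.7% in control pools. In heat pools DDX55 stood at 28.5%, DHX34 at 23.3% and DDX3X at 22.8%.

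**Figure D3:**
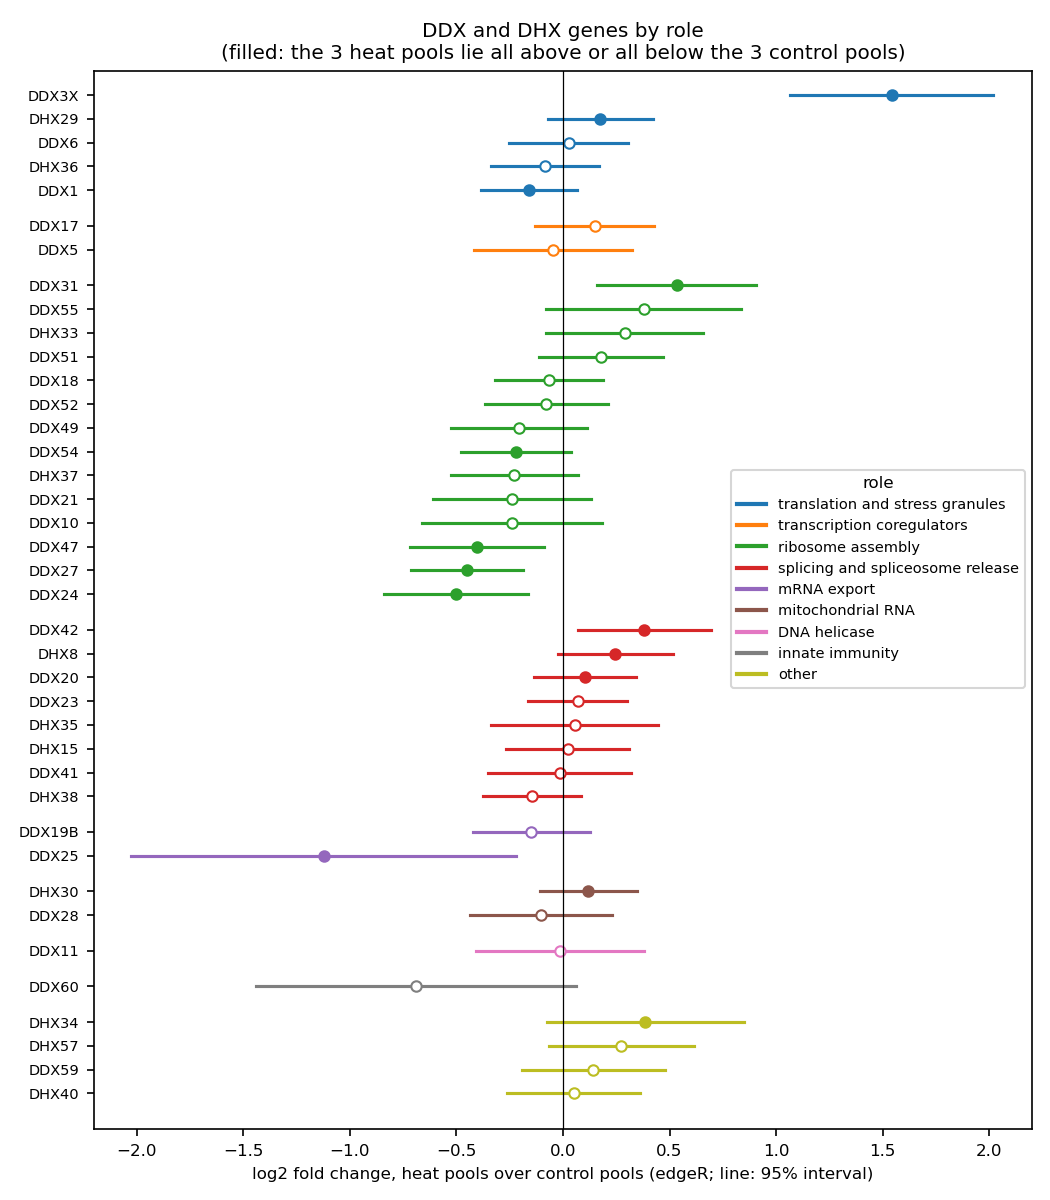
Log2 fold change (heat over control) with 95% interval for each of the 39 genes, grouped by role; filled points mark genes whose 3 heat pools do not overlap the 3 control pools in scaled CPM. DDX3X is at 1.54, DDX25 at -1.12, and the remaining points lie between -0.69 and 0.53.

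Of the 5 members that act in translation and in the granules that store untranslated mRNA, those other than DDX3X stayed close to their control level. DHX29, which helps the small ribosomal subunit pass structured leaders in mammals, was at 31.2, 32.7 and 29.8 CPM in control pools and 35.3, 35.6 and 34.8 CPM in heat pools. The heat pools lay above the control pools by a small margin, with a log2 fold change of 0.18 (SE 0.11, edgeR adjusted p = 0.421). In FPKM the groups of DHX29 overlapped, at 3.45 to 3.84 in control pools and 3.71 to 4.12 in heat pools. DDX1, a subunit of the complex that joins cut tRNA pieces in human cells, was at 98.8, 102 and 93.6 CPM in control pools against 85.0, 86.9 and 91.9 CPM in heat pools, all below (-0.16, SE 0.10, edgeR adjusted p = 0.422). DHX36, which unwinds G-quadruplexes, overlapped between the groups at 103 to 119 and 99.3 to 114 CPM (-0.08, SE 0.11). DDX6, a partner of the decapping enzymes, had a log2 fold change of 0.03.

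Most members that assemble ribosomes in the nucleolus had negative values, none of which passed the test. Of 14 members of this group, 10 were negative and 4 positive, with a median log2 fold change of -0.21 beside -0.0027 for all tested genes. The median was -0.091 when control pool 2 was left out and -0.13 when heat pool 2 was left out. In 4 all heat pools were lower (28.6%, against 12.9% of all genes) and in 1 all were higher (7.14%, against 11.6%). DDX27, which acts in maturation of the large subunit rRNA, was at 100.8, 111 and 95.2 CPM in control pools and 74.9, 68.3 and 81.7 CPM in heat pools. Every heat pool was below every control pool, at a log2 fold change of -0.45 (SE 0.11, 95% interval -0.71 to -0.19, edgeR adjusted p = 0.129). Over the alternatives its adjusted p ranged from 0.0527 in DESeq2 to 0.329 in edgeR without control pool 2.

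DDX24, the counterpart of a yeast large subunit assembly factor, went from 32.5, 38.3 and 30.1 CPM in control pools to 24.9, 20.6 and 25.8 CPM in heat pools. The groups did not overlap (-0.50, SE 0.15, edgeR adjusted p = 0.154). DDX47, whose yeast counterpart matures the small subunit rRNA, was at 27.4, 28.8 and 23.3 CPM against 21.7, 19.3 and 19.2 CPM, again without overlap (-0.40, SE 0.14, edgeR adjusted p = 0.191). DDX31, the counterpart of another large subunit factor of yeast, stood in the opposite direction, at 16.6, 15.2 and 14.1 CPM in control pools and 20.2, 26.5 and 19.8 CPM in heat pools. Its log2 fold change was 0.53 (SE 0.16, edgeR adjusted p = 0.163), with heat pool 2 the highest, and 0.39 without that pool. The other 10 members of this group (DDX10, DDX18, DDX21, DDX49, DDX51, DDX52, DDX54, DDX55, DHX33 and DHX37) had log2 fold changes from -0.24 to 0.38.

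The list of other nucleolar ribosome assembly factors leaned the same way as these helicases. It also held the transcription factor MYC, subunits of RNA polymerase I and the polymerase I factors RRN3 and UBTF. RRN3 and UBTF were among its genes with all heat pools higher. Of 75 tested genes, 61 were negative and 14 positive, with a median log2 fold change of -0.18, and 28 had all heat pools lower (37.3%, against 12.9% of all genes) and 3 all higher (4.0%, against 11.6%). By edgeR 0 passed. An unadjusted p under 0.05 in edgeR was reached by 18 lower genes (24.0%, against 9.02% of all genes) and 2 higher genes (2.67%, against 8.87%). DESeq2 called 2 lower and 1 higher, where it called 2.26% of all genes lower and 2.76% higher. RRP9, a protein of the U3 particle that guides early rRNA cleavage, was at 44.8, 43.1 and 39.9 CPM in control pools and 27.2, 16.2 and 23.4 CPM in heat pools (-0.94, SE 0.19, edgeR adjusted p = 0.0897), and it fell in DESeq2 (adjusted p = 0.00136). NOC2L, a pre-ribosome export factor in yeast, was at -0.42 (SE 0.10, edgeR adjusted p = 0.119) and fell in DESeq2 (adjusted p = 0.0486), and RCL1, which acts in small subunit assembly, was at -0.46 (SE 0.12, edgeR adjusted p = 0.133). MDN1, the giant ATPase of large subunit assembly, was named after its values were seen as the 1 gene of the list that DESeq2 called higher (adjusted p = 0.0478). It was at 0.75 (SE 0.24, edgeR adjusted p = 0.176). Its groups overlapped, at 62.8, 76.9 and 55.1 CPM in control pools and 109, 144 and 73.2 CPM in heat pools. The list median lay between -0.22 and -0.17 in the heat pools and between -0.090 and 0.070 in the control pools, so heat and control pools did not overlap. The 14 helicases of ribosome assembly did overlap, with medians of -0.045, -0.28 and -0.091 in heat pools 1, 2 and 3 against 0.020, 0.094 and -0.11 in control pools 1, 2 and 3.

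**Figure D4:**
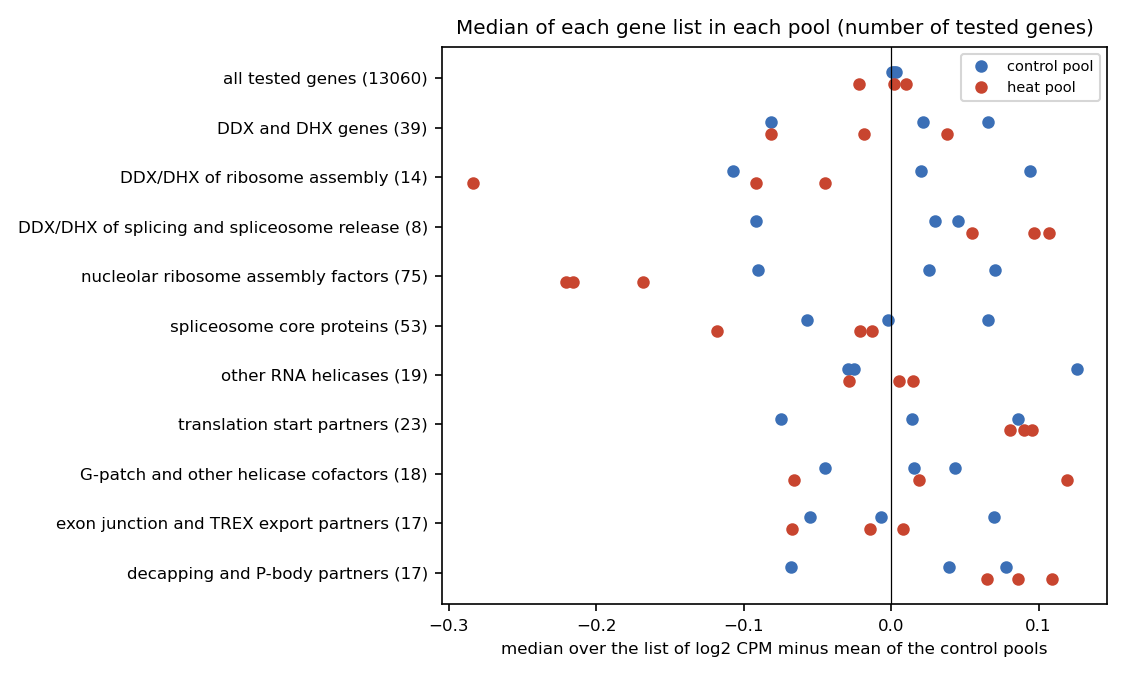
Median over each gene list of log2 CPM minus the mean of the control pools, 1 point per pool (blue control, red heat), with the number of tested genes in brackets. The nucleolar ribosome assembly factors lie at -0.22 to -0.17 in the heat pools, below all control pools, whereas the DDX and DHX genes as a whole overlap.

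Splicing helicases had small values, mostly positive, and none passed the test. Of 8 members, 6 were positive, with a median log2 fold change of 0.062 that was -0.00082 by limma-trend on log2(FPKM + 1), and 3 had all heat pools higher in scaled CPM (37.5%, against 11.6% of all genes). In FPKM 0 of the 8 did, against 7.60% of all genes. DDX42, which binds the branch site complex of the spliceosome, was at 67.4, 66.2 and 64.2 CPM in control pools and 89.6, 98.0 and 70.2 CPM in heat pools. Heat pools 1 and 2 were well above and heat pool 3 just above the control pools (0.38, SE 0.14, edgeR adjusted p = 0.204). DHX8, which releases spliced mRNA, was at 39.4, 35.3 and 34.3 CPM in control pools and 44.5, 45.3 and 39.4 CPM in heat pools (0.24, SE 0.12, edgeR adjusted p = 0.317). Its lowest heat pool and highest control pool were nearly equal. DDX20, of the complex that loads splicing particles, went from 34.0 ± 0.768 to 36.5 ± 1.18 CPM, and DHX38, which acts at the second step of splicing, from 92.8 ± 5.69 to 83.9 ± 3.47 CPM, with edgeR adjusted p of 0.645 and 0.48. DDX23, DDX41, DHX15 and DHX35 had log2 fold changes from -0.016 to 0.069.

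The list of core spliceosome proteins, with 53 tested genes, had a median of -0.037, with 32 negative, and its pool medians overlapped between the groups. It also held the Gemin proteins and STRAP, which help load splicing particles, and the recycling factor SART3. GEMIN6, GEMIN8 and SART3 were among its genes with all heat pools lower. All heat pools were lower in 11 (20.8%, against 12.9% of all genes) and higher in 5 (9.43%, against 11.6%). Of the 53, 0 passed in edgeR or DESeq2, where DESeq2 called 5.02% of all genes. An unadjusted p under 0.05 in edgeR was reached by 8 lower genes (15.1%, against 9.02% of all genes) and 1 higher gene (1.89%, against 8.87%). The Sm proteins SNRPF (-0.55, SE 0.15) and SNRPE (-0.43, SE 0.12) and the U5 protein SNRNP40 (-0.45, SE 0.12) had the smallest p, with edgeR adjusted p of 0.137, 0.146 and 0.144. The median of the list turned to 0.012 when a trend on gene length was removed.

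Among members with other roles, DDX60 and DDX25 had the most negative values. DDX60 (gene 422427), an antiviral factor induced by interferon in human cells, was at 220, 409 and 421 CPM over control pools 1 to 3, and at 242, 131 and 279 CPM over heat pools 1 to 3. Control pool 1 was below heat pools 1 and 3, so the groups overlapped (-0.69, SE 0.33, 95% interval -1.44 to 0.06, edgeR adjusted p = 0.314). Leaving out control pool 1 gave a log2 fold change of -0.93, and leaving out heat pool 2 gave -0.42. ZNFX1, an RNA helicase with antiviral activity in mammals, did not overlap between the groups, at 113, 159 and 157 CPM in control pools and 88.8, 58.2 and 103 CPM in heat pools. It was at -0.78 (SE 0.22, edgeR adjusted p = 0.147) and fell in DESeq2 (adjusted p = 0.0323). It had the smallest p of the list of other RNA helicases, which showed no common direction. IFIH1 (-0.28, SE 0.19, edgeR adjusted p = 0.459) and HELZ2 (0.02, SE 0.23, edgeR adjusted p = 0.974) of that list overlapped between the groups.

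DDX25, which in mouse is needed for sperm formation and carries mRNA out of the nucleus, was scarce in this tissue. Its CPM was 2.15, 1.94 and 1.15 in control pools and 1.10, 0.637 and 0.661 in heat pools. The log2 fold change of -1.12 (SE 0.39, 95% interval -2.02 to -0.22, edgeR adjusted p = 0.2) rests on 8 to 30 counts per library, and it met the count rule through all control pools and heat pool 1. DDX19B, which frees mRNA from its proteins at the nuclear pore, overlapped between the groups at 89.2 to 105 CPM and 78.3 to 96.5 CPM (-0.15, SE 0.12, edgeR adjusted p = 0.554). In FPKM its groups did not overlap, at 30.5 to 36.2 in control pools and 25.8 to 30.3 in heat pools.

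Of the helicases of mitochondria and the remaining members, none passed the test in edgeR or DESeq2. DHX30, which binds mitochondrial RNA in human cells, went from 49.7 ± 2.08 to 54.0 ± 1.21 CPM and DDX28, a mitochondrial ribosome assembly factor, from 25.7 ± 1.84 to 24.0 ± 3.35 CPM. DDX11, a DNA helicase of sister chromatid cohesion in spite of its name, was at 10.9 ± 1.17 and 10.9 ± 1.15 CPM. DHX34, which takes part in nonsense-mediated decay in human cells, was at 9.68, 10.1 and 8.87 CPM in control pools and 10.9, 15.8 and 10.7 CPM in heat pools (0.39, SE 0.20, edgeR adjusted p = 0.356). Heat pool 2 was the highest, and without it the log2 fold change of DHX34 was 0.18. DHX57 (0.27, SE 0.15), DDX59 (0.14, SE 0.15) and DHX40 (0.05, SE 0.14) overlapped between the groups.

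By name, the 12 DHX genes had a median log2 fold change of 0.087, with 9 positive, and the 27 DDX genes a median of -0.066, with 10 positive. Gene length differed between them, with medians of 4452 bp and 2508 bp as implied by counts and FPKM. When a trend on gene length was removed the medians were 0.056 and -0.041. Members are not replicates, and no test was made of this difference.

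**Figure D5:**
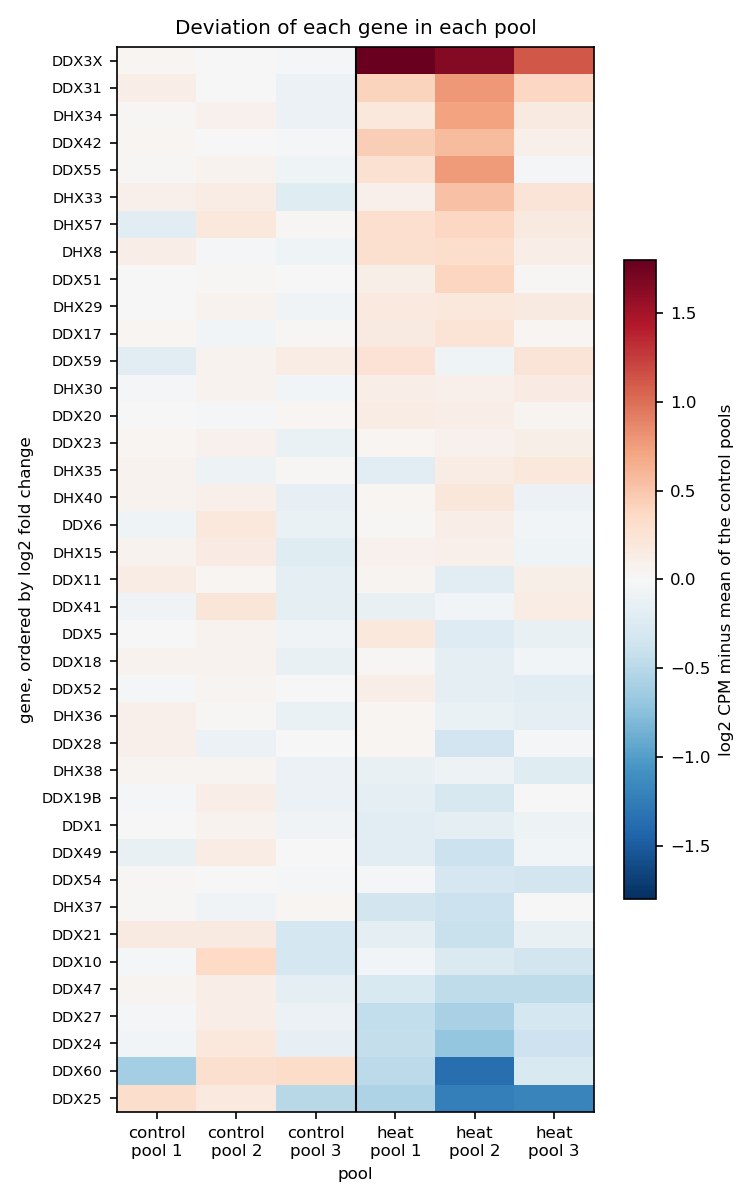
Log2 CPM minus the mean of the control pools for each gene (rows, ordered by log2 fold change) in each pool (columns); red is higher and blue lower than the control mean. DDX3X is red in each heat pool, DDX60 is low in control pool 1 and lowest in heat pool 2, and most other rows stay pale.

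RNA helicases with other names showed no common direction. Of 19 tested genes, 9 were positive and 10 negative, with a median of -0.00075, and 0 passed in edgeR. At an unadjusted p under 0.05 in edgeR, 2 were lower (10.5%, against 9.02% of all genes) and 0 higher (against 8.87%). DESeq2 called 1 lower, ZNFX1, where it called 2.26% of all genes lower. MOV10, a helicase of RNA silencing, was at -0.54 (SE 0.19, edgeR adjusted p = 0.2) and HELZ at 0.20 (SE 0.10, edgeR adjusted p = 0.334).

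The proteins that work with DDX3X and EIF4A helicases at the start of translation had values in both directions. Of 23 tested genes, 9 had all heat pools higher (39.1%, against 11.6% of all genes) and 4 all lower (17.4%, against 12.9%). In edgeR 0 passed. At an unadjusted p under 0.05 in edgeR, 8 were higher (34.8%, against 8.87% of all genes) and 3 of the 23 were lower (against 9.02%). DESeq2 called 2 higher and 0 lower, where it called 2.76% of all genes higher and 2.26% lower. Those 2 were EIF3E, a subunit of initiation factor 3, from 362 ± 15.7 to 484 ± 45.5 CPM (0.42, SE 0.13, edgeR adjusted p = 0.162), and PABPC1, the cytoplasmic poly(A) binding protein, from 508 ± 44.7 to 698 ± 95.2 CPM (0.46, SE 0.15, edgeR adjusted p = 0.178). G3BP2, a stress granule protein, was at -0.41 (SE 0.14, edgeR adjusted p = 0.198). The list had a median of 0.058, and 0.00011 by limma-trend on log2(FPKM + 1).

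Partners of DDX6 in decapping and mRNA decay had small positive values. Of 17 tested genes, 14 were positive with a median of 0.074, 4 had all heat pools higher (23.5%, against 11.6% of all genes) and 0 all lower (against 12.9%). The pool medians of this list overlapped between the groups. TOB1, which brings the deadenylase to mRNA, was at 119, 130 and 130 CPM in control pools and 198, 166 and 181 CPM in heat pools (0.52, SE 0.11, edgeR adjusted p = 0.102), and it was the 1 gene of the list that DESeq2 called. EIF4ENIF1 (0.33, SE 0.13) and CNOT6, a deadenylase (0.25, SE 0.12), followed. In edgeR 0 passed, with 2 higher (11.8%, against 8.87% of all genes) and 0 lower (against 9.02%) at an unadjusted p under 0.05. Of all genes, DESeq2 called 2.76% higher.

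Among 17 tested partners of the export helicases and of the exon junction complex, 9 were positive and 8 negative, with a median of 0.0047. ALYREF, the adaptor that the helicase DDX39B loads onto mRNA, was at 136, 131 and 128 CPM in control pools and 92.1, 97.9 and 105 CPM in heat pools (-0.42, SE 0.10, edgeR adjusted p = 0.119), and fell in DESeq2 (adjusted p = 0.0331). ZC3H11A, another protein of mRNA export, was at 0.56 (SE 0.18, edgeR adjusted p = 0.174) and rose in DESeq2 (adjusted p = 0.0474), and RBM8A, of the exon junction complex, was at -0.27 (SE 0.10, edgeR adjusted p = 0.218). In edgeR 0 of these passed, with 1 higher (5.88%, against 8.87% of all genes) and 3 lower (17.6%, against 9.02%) at an unadjusted p under 0.05. DESeq2 called 1 higher and 1 lower, where it called 2.76% of all genes higher and 2.26% lower. Of 18 tested G-patch proteins and other cofactors, 12 were positive, with a median of 0.043 that turned to -0.010 with total count scaling. That scaling also lowered the median of the 39 DDX and DHX genes, from -0.012 to -0.068. In both edgeR and DESeq2 0 of the 18 cofactors passed, where DESeq2 called 5.02% of all genes. At an unadjusted p under 0.05 in edgeR, 3 were higher (16.7%, against 8.87% of all genes) and 1 was lower (5.56%, against 9.02%). GPATCH4 was at -0.66 (SE 0.19), GPATCH2 at 0.42 (SE 0.13) and GPATCH11 at 0.36 (SE 0.13), with edgeR adjusted p of 0.147, 0.162 and 0.217.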

How the data were processed

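Per the labels' protocols, RNA pooled from 4 hens went through poly(A) selection or removal of ribosomal RNA. The submitters' processing notes name cutadapt 1.9.1, HISAT2 2.0.1, HTSeq 0.6.1, DESeq2 and, as build, GRCg6a, without order or settings, and no strand setting is stated in the sources used here. The authors deposited estimated counts per gene, of which 13.1% to 13.7% per library were not whole within 0.001, and FPKM values, per the file headers. Reads of near-identical or overlapping genes could have been split by the counting.

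Estimated counts were rounded and tested with edgeR 4.0.16 (glmQLFit, glmQLFTest; filterByExpr with minimum count 10 and total 15; TMM) in R 4.3.3 on all 6 libraries, with 2-sided p-values adjusted after Benjamini and Hochberg over 13060 genes and a threshold of 0.05. SE was taken as the size of the log2 fold change over the root of F, and 95% intervals use the test's degrees of freedom. CPM uses TMM scaled library sizes. DESeq2 1.42.0 and limma 3.58.1 (limma-trend on log2 of the authors' FPKM plus 1, or plus 0.1) were alternatives, with other scalings, filters, a replicate block, removal of a gene length trend and leaving out each pool. A fold change on log2(FPKM + 1) understates that of low genes. Gene length is that implied by count, library total and FPKM. All 39 members matched a gene table of the assembly GRCg7b by identifier, 38 with the same symbol and DDX19B as DDX19 there; no coordinates or sequences are given.

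Members and lists were chosen with earlier results of these data known, and no list was tested as a set. Named members were those past the threshold in edgeR or DESeq2 and up to 4 per role with the smallest p. The 5 with the highest control FPKM and those under the count rule were named too, and other members are given by ranges. Pathway lists give up to 3 genes with the smallest p. Chosen afterwards were MDN1, MYC, RRN3, UBTF, IFIH1, HELZ2, PDCD4, EIF4EBP1, EIF4EBP2, G3BP1, ATXN2, GEMIN6, GEMIN8, SART3 and STRAP. Summed over genes, counting noise was smaller than the differences between pools of 1 group, at a chi-square per degree of freedom of 22.4 to 66.1. This is 1 value per pair of pools, and whether it holds for a single member was not tested. The edgeR and DESeq2 fits were tested on simulated data, and the other fits were not.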

Additional observations from a re-analysis of the deposited data

How the results depend on the processing

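The count of DDX and DHX genes that passed was 0 higher and 0 lower in edgeR and stayed so under other scalings, filters, limma-trend, removal of the length trend and the replicate block. It was 1 higher (DDX3X) in DESeq2 and 0 to 1 higher when single pools were left out, with 0 lower in each. The median log2 fold change of the members lay between -0.078 and 0.014 without single pools and at -0.068 with total count scaling. That scaling lowered other genes too: 16.8% of all tested genes then had all heat pools lower, against 12.9% in scaled CPM. Over all genes, the counts of 3 higher and 0 lower were 338 and 277 in DESeq2, 1 and 0 with limma-trend and a pseudocount of 0.1, and 0 to 6 and 0 to 1 without single pools. With the replicate number as a block they were 8 and 12, and DDX3X had an edgeR adjusted p of 0.0787. Same-numbered pools of the groups correlated at 0.257, 0.0891 and 0.0169 in their deviations. Differently numbered pools were not compared, so these values cannot decide whether the numbers pair the pools. The main fit took the pools as unpaired. The counts of members with all heat pools higher or lower, 8 and 6 in scaled CPM, were 2 and 10 with total count scaling, and 2 higher with FPKM; these comparisons and those of list medians were added after seeing the data. The median of the nucleolar ribosome assembly factors stayed between -0.24 and -0.15 under every alternative. The p-values set the difference between groups against the spread between pools of 4 hens, 3 pools per group. The estimate of that spread draws partly on other genes. The cause of these differences between settings was not tested.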
